A study of Mus musculus with 6 samples.

Results

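The genes described here are 35 genes of the hypoxia response and of glycolysis, picked by symbol from a table of 46095 gene rows: the subunits, regulators and targets of the hypoxia-inducible factors (HIF), the glucose and lactate transporters, the enzymes of glycolysis, the lactate dehydrogenases, and 2 kinases that act on pyruvate dehydrogenase. All 35 were found in the table, and all 35 passed the filter on low counts, among 16061 genes tested. The counts come from primary cultures of mouse cells that are labelled nucleus pulposus cells. These cells, from the gelatinous core of the intervertebral disc, were taken from mice aged 8 weeks, released with collagenase, grown in medium with a high share of fetal bovine serum and sequenced at passage 2. The genotypes of Chsy3, a chondroitin sulfate synthase gene, were wild type, heterozygous and knockout, with 2 libraries each. The title of the series speaks of a knockdown, while the sample labels give genotypes, which were used. Strain, the altered part of Chsy3, the oxygen level of the cultures, and whether the 2 libraries of a genotype come from separate animals or cultures are details the labels do not give, so p-values measure the spread between these libraries, which may be technical.

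HIF is a transcription factor of an alpha subunit, HIF-1 alpha (Hif1a) or HIF-2 alpha (Epas1), and the stable partner ARNT. In the presence of oxygen, prolyl hydroxylases (Egln1, Egln3) mark the alpha subunit and the VHL protein directs it to breakdown, so that HIF activity is set mostly at the protein level and not by transcript level. When oxygen falls, HIF raises genes of angiogenesis, mitophagy and glucose use. Glycolysis turns glucose into pyruvate, lactate dehydrogenase turns pyruvate into lactate, and pyruvate dehydrogenase kinases hold pyruvate out of the mitochondria. The nucleus pulposus has no vessels of its own, and its cells are known for HIF-1 alpha that stays present in normal oxygen and for a reliance on glycolysis.

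Several checks of the labels bear on all values that follow. Total counts lay between 29622117 and 33899611 per library. Counts of Chsy3 were 284 and 284 (wild type), 167 and 197 (heterozygous) and 118 and 76 (knockout). Every library is labelled male, yet the Y-linked genes Ddx3y, Uty, Kdm5d and Eif2s3y had 0 counts in both heterozygous libraries, and Xist, which female cells express and whose exons Tsix overlaps on the opposite strand, was present in all 6 libraries, at 651 to 664 CPM (counts scaled to a common effective library size) in wild type and knockout and at 1072 and 1080 CPM in heterozygous. Ddx3y had 730 to 1081 counts in the wild-type and knockout libraries, so those libraries held both Y-linked transcripts and Xist. Differences of sex and of genotype, on any chromosome, therefore cannot be told apart in comparisons with the heterozygous libraries. This bears on all 35 genes, and 2 of them, Pgk1 and Pdk3, lie on the X chromosome. In knockout against wild type, Ddx3y and Eif2s3y were higher (1.27-fold and 1.30-fold, edgeR, adjusted p = 0.00755 and 0.0117). Uty, Kdm5d and Xist did not pass there (edgeR, adjusted p = 0.125, 0.884 and 0.672). Whether the make-up by sex differed between the knockout and wild-type libraries was not tested. Of 13 markers of nucleus pulposus and notochord 8 passed the filter. T and Shh had 0 counts, and Acan, Krt8 and Krt18 reached at most 0.235, 0.243 and 0.147 CPM. Over the 6 libraries Sox9 lay between 15.3 and 58.2 CPM, Pax1 between 19.8 and 68.5, Foxf1 between 17.7 and 37.2, Col2a1 between 5.13 and 22.96, Cd24a between 6.38 and 13.6 and Krt19 between 0.409 and 16.6. Car3 lay between 0.235 and 4.34 CPM and Hapln1 between 0.206 and 1.84. The 13 summed to 111 to 116 CPM in wild type, 173 to 182 in heterozygous and 104 to 107 in knockout. Of the 8 tested, 4 were higher and 3 lower in heterozygous than in wild type, and 2 higher and 3 lower in knockout. Sox9, Pax1, Foxf1 and Car3 rose in heterozygous. Krt19, Col2a1 and Cd24a fell there, from means of 15.75, 22.8 and 13.3 CPM to 0.759, 5.65 and 6.42. Of all genes tested, 19.2% were higher and 19.7% lower in heterozygous, and 19.2% and 18.9% in knockout. Markers of macrophages and fibroblasts were far more abundant. The 13 macrophage markers summed to 13354 to 16588 CPM over the 6 libraries and the 9 fibroblast markers to 15927 to 29426 CPM. Their values by genotype are given after the results.

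In knockout against wild type, 18 of the 35 genes were lower, 7 were higher and 10 did not pass the threshold (edgeR quasi-likelihood test, adjusted p under 0.05 over all 16061 genes). Over all genes tested 38.0% were called, 19.2% higher and 18.9% lower. In heterozygous against wild type 14 of the 35 were higher, 11 lower and 10 not past, where 38.9% of all genes were called, 19.2% higher and 19.7% lower. In knockout against heterozygous 21 were lower, 3 higher and 11 not past, where 37.1% of all genes were called, 19.1% higher and 17.9% lower. The 35 genes are abundant, and counts of calls rise with abundance. Among the 9567 genes with a mean of at least 10 CPM, 50.2%, 50.6% and 48.9% were called in these 3 comparisons, against 24, 25 and 24 of the 33 genes of the list at that level. The median log2 fold change of the 35 genes was -0.10 in knockout against wild type, 0.01 in heterozygous against wild type and -0.20 in knockout against heterozygous, and that of all genes tested was -0.0031, -0.0029 and 0.0116. Most changes were small. The median size of the log2 fold change, sign left aside, was 0.19, 0.20 and 0.23 for the list. It was 0.24, 0.24 and 0.24 for all genes tested. Among the 9567 genes with a mean of at least 10 CPM it was 0.17, 0.17 and 0.16, below that of the list. Past the threshold, 6, 5 and 2 of the 35 genes changed more than 1.5-fold, against 2100, 2023 and 1909 of all 16061 genes. The 3 comparisons share libraries, so their counts are not independent of each other.

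**Figure D1:**
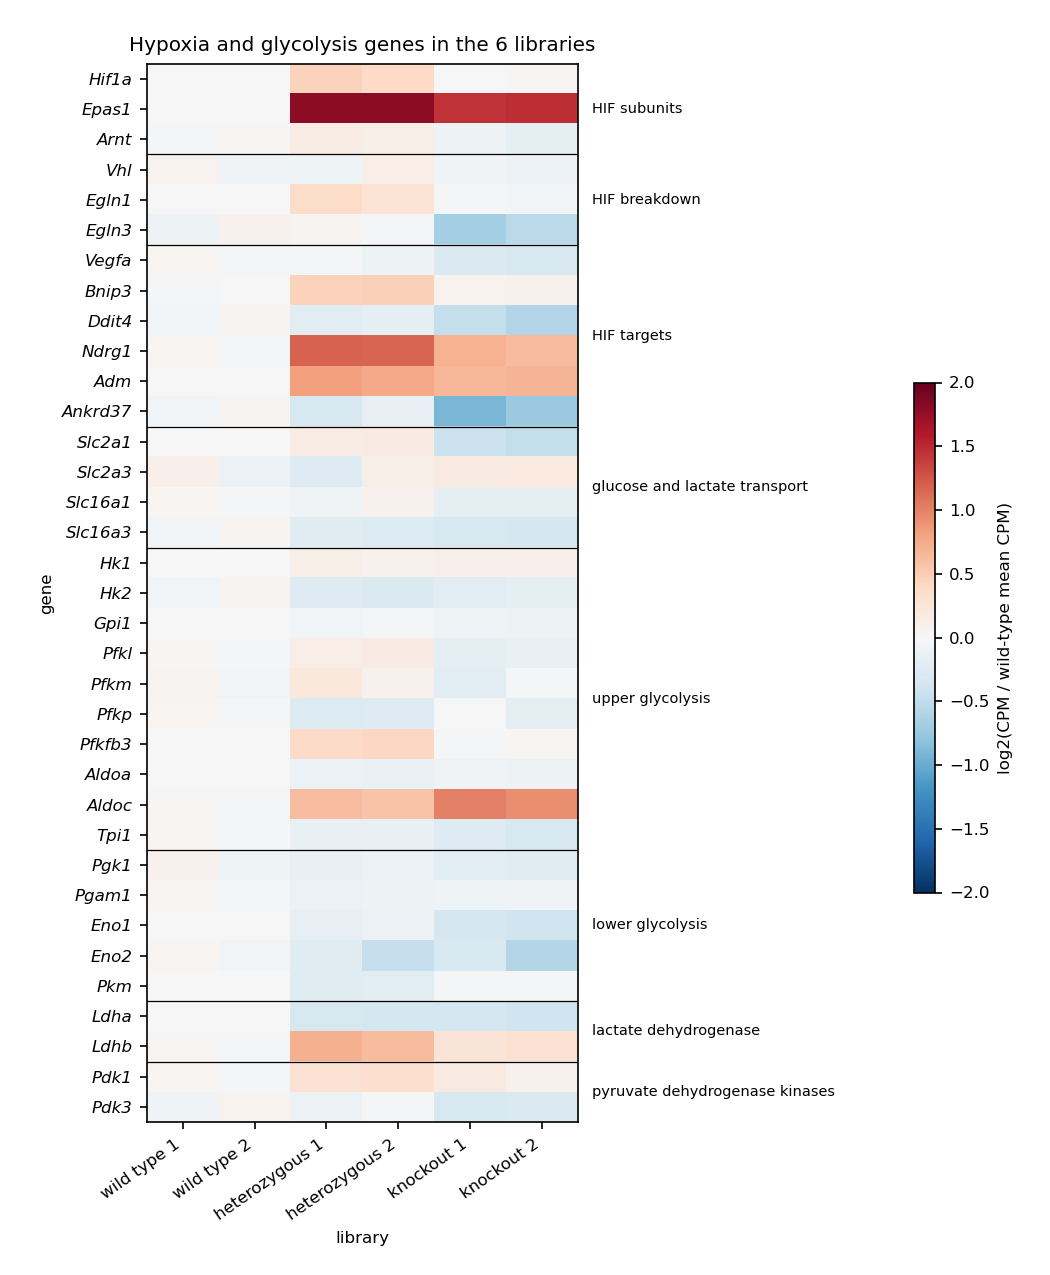
Level of each of the 35 genes in each library as log2 of its CPM over the wild-type mean CPM, with genes in rows grouped by role and the 6 libraries in columns. Epas1, Ndrg1, Adm and Aldoc are red in all 4 heterozygous and knockout libraries, Hif1a, Bnip3 and Pfkfb3 mainly in the heterozygous libraries, and Egln3, Slc2a1 and Ankrd37 are blue in knockout.

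Transcripts of the HIF alpha subunits differed between the genotypes, and Epas1 changed the most of the 35 genes against wild type. Epas1 (chromosome 17, 86753700 to 86833410 in GENCODE M21 on GRCm38) stood at 25.8 and 26.1 CPM in wild type, 89.5 and 89.2 in heterozygous and 70.4 and 72.2 in knockout. The libraries of the genotypes did not overlap. It was 3.44-fold higher in heterozygous (log2 1.78 ± 0.06, SE, edgeR, adjusted p = 1.02e-26) and 2.75-fold higher in knockout (log2 1.46 ± 0.06, adjusted p = 1.72e-23) than in wild type, and fell by 0.33 on the log2 scale from heterozygous to knockout (edgeR, adjusted p = 5.34e-06). Hif1a (chromosome 12, 73901375 to 73947530) had a level of 461 and 464 CPM in wild type, 637 and 611 in heterozygous and 461 and 472 in knockout. Only the heterozygous libraries stood apart. The rise in heterozygous was 1.35-fold (log2 0.43 ± 0.03, edgeR, adjusted p = 7.22e-18), while knockout against wild type gave 0.01 ± 0.03 (adjusted p = 0.773). Arnt, the partner of both alpha subunits, was lower in knockout (log2 -0.15 ± 0.05, edgeR, adjusted p = 0.014) and higher in heterozygous (0.13 ± 0.05, adjusted p = 0.0299). The knockout call of Arnt was lost without wild-type library 2 or knockout library 2 (adjusted p = 0.0992 and 0.194), and its heterozygous call without any single library of that comparison (adjusted p = 0.0540 to 0.171) and when scaled by library totals alone (adjusted p = 0.147).

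The genes of HIF breakdown went separate ways. Egln3, a hydroxylase gene that is itself a HIF target, stood at 12.8 and 14.6 CPM in wild type, 14.2 and 13.5 in heterozygous and 8.53 and 9.44 in knockout. It was low in knockout, and the wild-type and heterozygous libraries overlapped. The decrease was 1.52-fold against wild type (log2 -0.61 ± 0.13, edgeR, adjusted p = 0.000184) and 1.54-fold against heterozygous (-0.62 ± 0.13, adjusted p = 0.000152). Egln1, the main oxygen sensor among the hydroxylases, rose in heterozygous, from 99.4 and 101 to 129 and 120.4 CPM (log2 0.32 ± 0.05, edgeR, adjusted p = 2e-07), and gave -0.04 ± 0.05 in knockout (adjusted p = 0.498). Vhl, the substrate receptor of the ubiquitin ligase, lay between 22.3 and 26.3 CPM in the 6 libraries and passed the threshold in no comparison (edgeR, adjusted p = 0.491, 0.874 and 0.367).

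Promoter sequences are shown for 4 of the genes, since HIF binds DNA at a short core of ACGTG or GCGTG. The windows are the 250 bases before the RefSeq transcription start (GRCm38.p6), read along the strand of the gene, with the core letters in capitals. ACGTG and GCGTG were searched on both strands, where they also read CACGT and CACGC, and the palindrome CACGTG, which counts on each strand, is also the E-box of other factors. Where a gene has several starts the most upstream one was used. Bnip3 and Ankrd37 are among the HIF targets, while Aldoc and Ldha, described further on, moved in opposite directions.
Bnip3, chr7:138909507-138909756, minus strand: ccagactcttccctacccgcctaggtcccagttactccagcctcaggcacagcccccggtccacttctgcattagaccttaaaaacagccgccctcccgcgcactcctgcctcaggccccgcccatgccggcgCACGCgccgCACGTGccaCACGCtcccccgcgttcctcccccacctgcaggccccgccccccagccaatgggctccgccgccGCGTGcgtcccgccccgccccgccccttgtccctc
Ankrd37, chr8:45999851-46000100, minus strand: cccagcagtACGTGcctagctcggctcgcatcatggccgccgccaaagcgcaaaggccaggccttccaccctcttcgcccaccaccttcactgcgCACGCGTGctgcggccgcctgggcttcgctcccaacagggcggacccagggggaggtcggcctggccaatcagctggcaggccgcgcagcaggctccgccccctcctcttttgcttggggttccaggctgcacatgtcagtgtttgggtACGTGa
Aldoc, chr11:78322823-78323072, plus strand: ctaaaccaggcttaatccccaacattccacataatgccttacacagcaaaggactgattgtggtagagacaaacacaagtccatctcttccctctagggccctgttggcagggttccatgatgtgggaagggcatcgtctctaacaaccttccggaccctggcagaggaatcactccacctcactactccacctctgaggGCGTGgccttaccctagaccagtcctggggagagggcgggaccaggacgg
Ldha, chr7:46845554-46845803, plus strand: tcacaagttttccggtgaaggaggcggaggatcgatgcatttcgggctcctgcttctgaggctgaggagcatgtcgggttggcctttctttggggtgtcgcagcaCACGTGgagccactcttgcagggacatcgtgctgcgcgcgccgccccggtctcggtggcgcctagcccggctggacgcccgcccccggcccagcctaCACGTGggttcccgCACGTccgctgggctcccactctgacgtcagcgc
Counted over both strands, Ldha held 5 matches to ACGTG and 0 to GCGTG, Bnip3 2 and 3, Ankrd37 2 and 2, and Aldoc 0 and 1. RefSeq promoters were found for 32 of the 35 genes and not for Epas1, Ndrg1 and Slc2a3. Of their 46 promoters, 47.8% held ACGTG, against 20.8% of 14205 promoters of all genes tested and 16.6% of all 32851 promoters of the table. GCGTG was held by 54.3%, 42.2% and 28.2% in the same order, and the median GC content was 61.8%, 59.2% and 52.4%. A match describes these letters and is not a bound site.

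HIF target genes in the list went up and down in the same libraries. Of the 6, Ndrg1 and Adm were higher in both heterozygous and knockout than in wild type, Bnip3 in heterozygous, and Ddit4, Vegfa and Ankrd37 were lower in knockout. Ndrg1 (chromosome 15, 66929318 to 66969640), a stress-responsive gene, had 70.8 and 67.5 CPM in wild type, 157 and 155 in heterozygous and 112 and 107 in knockout. No libraries of different genotypes overlapped. Its increase was 2.26-fold in heterozygous (log2 1.17 ± 0.05, edgeR, adjusted p = 9.37e-25) and 1.59-fold in knockout (0.67 ± 0.05, adjusted p = 3.62e-16), and it fell by 0.51 on the log2 scale from heterozygous to knockout (adjusted p = 4.76e-13). Adm, which encodes the vasodilator peptide adrenomedullin, stood at 81.9 and 81.5, then 144 and 139, then 129 and 131 CPM in wild type, heterozygous and knockout. Its wild-type libraries were the lowest of the 6. It rose 1.73-fold in heterozygous (log2 0.79 ± 0.04, edgeR, adjusted p = 2.94e-19) and 1.59-fold in knockout (0.67 ± 0.04, adjusted p = 4.99e-17). The difference of Adm between knockout and heterozygous (-0.12, adjusted p = 0.0267) was lost without heterozygous library 1 or knockout library 1 or 2 (adjusted p = 0.179, 0.147 and 0.0643) and with library totals alone (0.352).

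Bnip3, a mitophagy receptor whose promoter is printed above, had 92.0 and 94.0 CPM in wild type, 128 and 129.6 in heterozygous and 97.2 and 98.8 in knockout. Its heterozygous libraries stood above all others. The increase was 1.39-fold (log2 0.47 ± 0.04, edgeR, adjusted p = 6.45e-12), and knockout against wild type gave 0.08 ± 0.04 (adjusted p = 0.192). Ddit4, an inhibitor of mTORC1 signalling, stood at 46.4 and 49.7 CPM in wild type, 41.5 and 41.8 in heterozygous and 34.6 and 31.9 in knockout. The order of the genotypes was thus wild type, heterozygous, knockout, with no overlap. It was 1.44-fold lower in knockout than in wild type (log2 -0.53 ± 0.07, edgeR, adjusted p = 2.98e-08). The smaller decrease in heterozygous (-0.20 ± 0.07, adjusted p = 0.0168) was lost in DESeq2 (adjusted p = 0.0629) and without wild-type library 2 or heterozygous library 1 or 2 (edgeR, adjusted p = 0.182, 0.0763 and 0.0521). Vegfa, the angiogenic growth factor gene, fell from 114 and 108 CPM in wild type to 90.8 and 88.3 in knockout (log2 -0.31 ± 0.05, edgeR, adjusted p = 5.66e-07) and gave -0.06 ± 0.05 in heterozygous (adjusted p = 0.29). Ankrd37, an ankyrin repeat gene, was the least abundant of the 6, at 3.59 and 3.86 CPM in wild type, 2.98 and 3.33 in heterozygous and 1.97 and 2.23 in knockout. Its decrease in knockout (log2 -0.82 ± 0.27, edgeR, adjusted p = 0.0118) was lost without wild-type library 2 or knockout library 1 (adjusted p = 0.0701 and 0.0896), and 406 bases of its exons overlap Lrp2bp and Ufsp2 on the opposite strand.

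Taking the subunits, breakdown genes and targets as 12 genes, 7 were higher and 1 lower in heterozygous than in wild type, 3 higher and 5 lower in knockout than in wild type, and 0 higher and 10 lower in knockout than in heterozygous. The median log2 fold changes of the 12 were 0.22, -0.07 and -0.34. Of all genes tested, 19.2%, 19.2% and 19.1% were higher in the same order, and 19.7%, 18.9% and 17.9% lower. At a mean of at least 10 CPM these shares were 24.2%, 25.8% and 26.5% higher and 26.4%, 24.3% and 22.4% lower. The other 2 of the 12 in the last comparison were Vhl and Ankrd37.

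**Figure D2:**
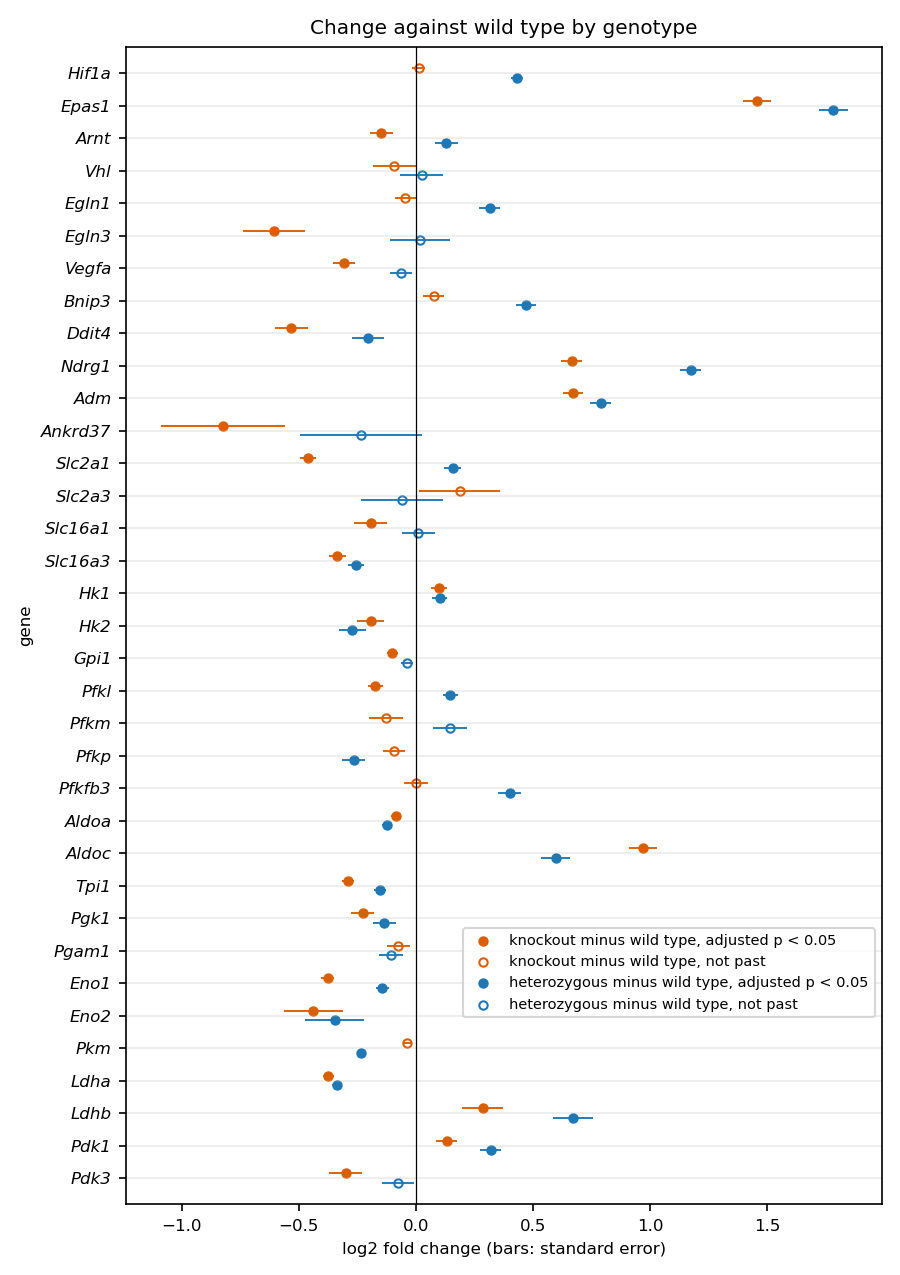
Log2 fold change against wild type with its standard error for each of the 35 genes, in orange for knockout and in blue for heterozygous, filled where the adjusted p was under 0.05. The largest change is that of Epas1, at 1.78 in heterozygous and 1.46 in knockout, followed by Ndrg1 at 1.17 in heterozygous and Aldoc at 0.97 in knockout, and most enzymes lie within 0.5 of 0.

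Glucose and lactate transporters were lower in knockout than in wild type in 3 of 4 cases, where 18.9% of all genes tested were lower. Slc2a1 (chromosome 4, 119108711 to 119137983), which encodes the glucose transporter GLUT1, had 211 and 207 CPM in wild type, 232 and 235 in heterozygous and 154 and 149.7 in knockout. The knockout libraries were the lowest and the heterozygous ones the highest. It was 1.38-fold lower in knockout than in wild type (log2 -0.46 ± 0.03, edgeR, adjusted p = 7.77e-15), 1.53-fold lower in knockout than in heterozygous (-0.62 ± 0.03, adjusted p = 7.3e-19) and 1.11-fold above wild type in heterozygous (0.16 ± 0.03, adjusted p = 0.000231). Slc16a3, the lactate exporter MCT4, fell in both genotypes, from 233 and 249.8 CPM in wild type to 205 and 200.1 in heterozygous (log2 -0.25 ± 0.04, edgeR, adjusted p = 8.55e-08) and 193 and 190.0 in knockout (-0.33 ± 0.04, adjusted p = 9.23e-11). Slc16a1, the lactate transporter MCT1, lay between 37.7 and 45.9 CPM in the 6 libraries. Its decrease in knockout (log2 -0.19 ± 0.07, edgeR, adjusted p = 0.0277) did not hold in DESeq2 (adjusted p = 0.0766), with library totals alone (0.0564), or without wild-type library 1 or knockout library 1 or 2 (edgeR, 0.203, 0.124 and 0.0809). Against heterozygous it was lower too (-0.20, adjusted p = 0.0219), but not with library totals alone or without heterozygous library 2 or knockout library 1 or 2 (adjusted p = 0.126, 0.321, 0.107 and 0.0682). Slc2a3, the transporter GLUT3, stood at 5.58 to 7.62 CPM and passed in no comparison (edgeR, adjusted p = 0.436, 0.831 and 0.289).

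Among the hexokinases, which trap glucose in the cell, the members of the list changed little. Hk1 had 211 and 214 CPM in wild type, 231 and 226 in heterozygous and 228 and 228 in knockout. It was 1.07-fold higher in both genotypes than in wild type (log2 0.10 ± 0.03 and 0.10 ± 0.03, edgeR, adjusted p = 0.0144 in knockout and 0.0119 in heterozygous). The knockout call was lost when any single wild-type or knockout library was left out (adjusted p = 0.0510 to 0.0980). The heterozygous call was lost with library totals alone (adjusted p = 0.144) and without wild-type library 1 or heterozygous library 1 (0.0866 and 0.0933). Hk2, the hexokinase best known as a HIF target, had 66.3 and 71.1 CPM in wild type, 57.6 and 56.2 in heterozygous and 59.2 and 60.9 in knockout. Its wild-type libraries were the highest, and it fell in heterozygous (log2 -0.27 ± 0.06, edgeR, adjusted p = 0.000202) and in knockout (-0.19 ± 0.06, adjusted p = 0.00632), the latter not without wild-type library 2 or knockout library 1 (adjusted p = 0.131 and 0.0663).

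A larger difference lay in Hk3, the hexokinase of blood cells of the myeloid line, which is not among the 35 genes and was named by the rule for the wider pathway. Hk3 had 72.1 and 72.7 CPM in wild type, 71.4 and 69.5 in heterozygous and 148 and 153 in knockout, a 2.08-fold increase in knockout (log2 1.06 ± 0.05, edgeR, adjusted p = 7.45e-23). Counted per kilobase of exon, Hk3 made up 35.1% ± 0.335 (SD, n = 2) of the summed level of Hk1, Hk2 and Hk3 in wild type, 34.5% ± 0.0757 in the heterozygous cultures and 52.7% ± 0.405 in knockout. Of all genes tested, 19.2% were higher and 18.9% lower in knockout than in wild type, and 19.2% and 19.7% in heterozygous. At a mean of at least 10 CPM these shares were 25.8% and 24.3%, and 24.2% and 26.4%. Of 12 macrophage markers tested, 8 were higher and 0 lower in knockout than in wild type, with a summed level of 115% of wild type. In heterozygous 7 were higher, 2 lower and 3 not past, with a sum of 123% of wild type. In that sum Lyz2 and Mrc1 gained the most CPM, from means of 7211 to 8845 and of 751 to 1853. In knockout their means were 7025 and 1823 CPM. The 3 not past in heterozygous, Csf1r, Tyrobp and C1qb, were higher in knockout. The 4 not past in knockout were Lyz2, Adgre1, Fcgr1 and C1qa. In heterozygous Lyz2 and Adgre1 were higher, and Fcgr1 and C1qa lower, than in wild type. Hk3 gave -0.04 ± 0.05 in heterozygous (edgeR, adjusted p = 0.565). The part of these markers in the change of Hk3 was not tested.

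The phosphofructokinases, which commit the sugar to glycolysis, differed among themselves. Pfkl, the liver-type subunit, was higher in heterozygous (log2 0.15 ± 0.03, edgeR, adjusted p = 0.000239) and lower in knockout (-0.17 ± 0.03, adjusted p = 2.46e-05) than in wild type, with 252 and 247, 272 and 281, and 218 and 225 CPM in wild type, heterozygous and knockout. Pfkp, the platelet-type subunit, fell in heterozygous, from 122 and 116 to 98.7 and 99.6 CPM (log2 -0.27 ± 0.05, adjusted p = 1.87e-05), and gave -0.09 ± 0.05 in knockout (adjusted p = 0.131), where without knockout library 1 the decrease passed (log2 -0.18, adjusted p = 0.00938). Its higher level in knockout than in heterozygous (0.17, adjusted p = 0.00419) was lost without knockout library 1 (adjusted p = 0.279). Pfkm, the muscle-type subunit, lay between 36.3 and 49.0 CPM and was called only in knockout against heterozygous (log2 -0.27, edgeR, adjusted p = 0.00239), a call lost without heterozygous library 1 or knockout library 1 (adjusted p = 0.0505 and 0.123). Against wild type Pfkm passed in knockout only without knockout library 2 (log2 -0.23, adjusted p = 0.0450). Pfkfb3, which makes the activator fructose 2,6-bisphosphate and is a HIF target, stood at 75.0 and 74.7 CPM in wild type, 97.8 and 99.9 in heterozygous and 72.8 and 77.1 in knockout. The heterozygous libraries were the highest, and wild type and knockout overlapped. The increase in heterozygous was 1.32-fold (log2 0.40 ± 0.05, edgeR, adjusted p = 1.13e-08).

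The 2 aldolase genes moved in opposite directions. Aldoc (chromosome 11, 78322968 to 78327781), the brain-type aldolase, had 39.2 and 38.2 CPM in wild type, 59.5 and 57.6 in heterozygous and 77.9 and 73.9 in knockout. It increased in the order wild type, heterozygous, knockout with no overlap, 1.51-fold in heterozygous (log2 0.60 ± 0.06, edgeR, adjusted p = 7.75e-11) and 1.96-fold in knockout (0.97 ± 0.06, adjusted p = 1.33e-17), and the rise from heterozygous to knockout also passed (0.37 ± 0.06, adjusted p = 1.31e-06). Aldoa, the main isoform of these cultures, stood at 1471 and 1461 CPM in wild type and fell slightly, by 0.12 on the log2 scale in heterozygous (edgeR, adjusted p = 3.76e-06) and by 0.08 in knockout (adjusted p = 0.00108). Per kilobase of exon, Aldoc was still a small share of both aldolases, 2.30% ± 0.0329 (SD, n = 2) in wild type, 3.74% ± 0.0571 in the heterozygous cultures and 4.66% ± 0.0749 in knockout. Gpi1 and Tpi1, the isomerases of the upper part of the pathway, were lower in knockout, at -0.10 ± 0.03 (edgeR, adjusted p = 0.00129) and -0.29 ± 0.03 log2 (adjusted p = 5.8e-13), and Tpi1 was lower in heterozygous too (-0.15 ± 0.03, adjusted p = 2.73e-06). With the counts of near-identical gene copies added, the knockout call of Gpi1 was lost (log2 -0.06, adjusted p = 0.0544). Its call against heterozygous (-0.06, adjusted p = 0.0471) was lost in 9 of 14 alternatives. With library totals alone its sign turned (log2 0.00111, adjusted p = 0.980), and it was lost in each fit without wild-type library 1 or 2, heterozygous library 2 or knockout library 1 or 2 (0.0589, 0.0529, 0.378, 0.0872 and 0.178). With the copies added it was lost as well (adjusted p = 0.474).

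**Figure D3:**
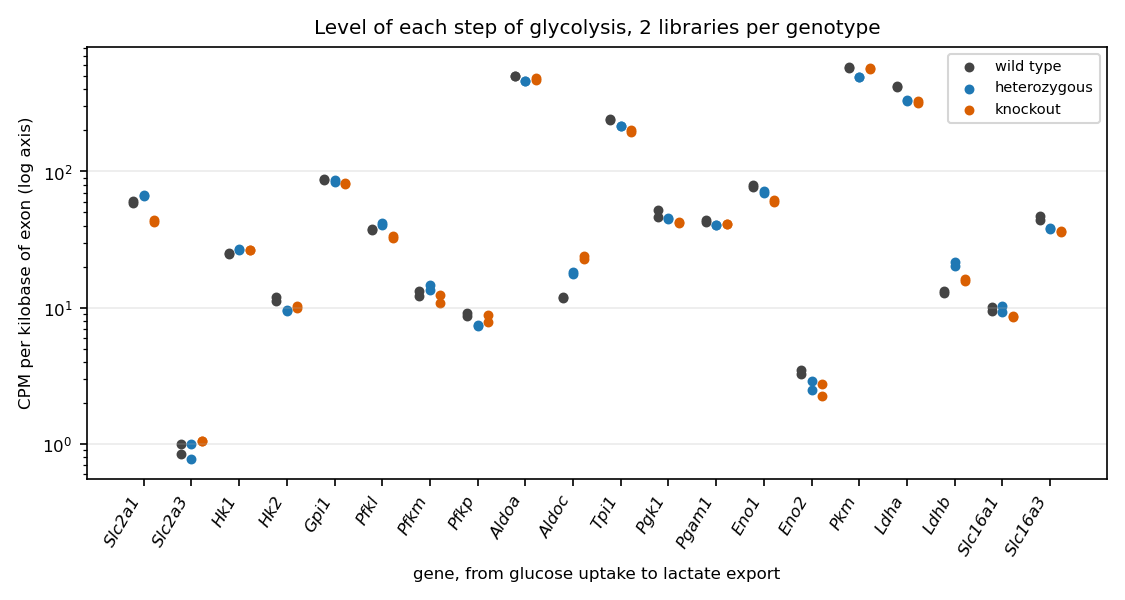
Level of each transporter and enzyme in CPM per kilobase of exon on a log axis, in order of the pathway, with 1 point per library and 2 libraries per genotype. Pkm, Aldoa, Ldha and Tpi1 lie highest, at 584, 504, 418 and 241 in wild type, and Slc2a3 lowest at 0.921.

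In the lower part of glycolysis, from phosphoglycerate kinase to pyruvate kinase, no gene rose against wild type. Of the 5 genes, 3 fell in knockout and 4 in heterozygous, where 18.9% and 19.7% of all genes tested fell. Eno2, the neuronal enolase, had 16.5 and 15.4 CPM in wild type, 13.5 and 11.6 in heterozygous and 13.0 and 10.6 in knockout. Its wild-type libraries were the highest, and the other genotypes overlapped. The decrease was 1.35-fold in knockout (log2 -0.44 ± 0.13, edgeR, adjusted p = 0.00451), lost without knockout library 2 (adjusted p = 0.132), and 1.27-fold in heterozygous (-0.35 ± 0.13, adjusted p = 0.0263), lost without wild-type library 1 or heterozygous library 2 (adjusted p = 0.141 and 0.234) and in DESeq2 (0.0823). Eno1, the common enolase, fell from 425 and 417 CPM in wild type to 374 and 388 in heterozygous (log2 -0.14 ± 0.03, edgeR, adjusted p = 7.2e-05) and 329 and 319 in knockout (-0.38 ± 0.03, adjusted p = 9.51e-15). Its count is uncertain because 3 near-identical copies, led by Eno1b, held 50.2% of the summed counts. With these copies added the decreases were -0.31 in knockout and -0.22 in heterozygous. With Eno1b alone joined to Eno1, the difference between knockout and heterozygous no longer passed (log2 -0.05, adjusted p = 0.128).

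Pgk1, which makes the first ATP of the pathway, fell in knockout (log2 -0.23 ± 0.05, edgeR, adjusted p = 0.00019), from 117 and 104 CPM to 96.1 and 93.1, a call that failed without wild-type library 1 (adjusted p = 0.0601). Its decrease in heterozygous (-0.14 ± 0.05, adjusted p = 0.0256) was lost in DESeq2 (0.105) and without wild-type library 1 or heterozygous library 1 (edgeR, adjusted p = 0.609 and 0.130). Pkm, the pyruvate kinase that is most abundant of the 35 genes, had 2942 and 2898 CPM in wild type, 2482 and 2484 in heterozygous and 2841 and 2856 in knockout. The heterozygous libraries were the lowest (log2 -0.23 ± 0.02 against wild type, edgeR, adjusted p = 1.74e-14), and knockout gave -0.04 ± 0.02 (adjusted p = 0.117). Pgam1, a mutase of the same stretch, passed in no comparison (edgeR, adjusted p = 0.262, 0.0929 and 0.67), and with library totals alone only in heterozygous against wild type (log2 -0.15, adjusted p = 0.0169).

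The lactate dehydrogenases also moved apart. Ldha (chromosome 7, 46841475 to 46855627), the form that favours lactate and a known HIF target, had 1398 and 1372 CPM in wild type, 1104 and 1089 in heterozygous and 1086 and 1053 in knockout. Its wild-type libraries stood above the 4 others. It was 1.26-fold lower in heterozygous (log2 -0.34 ± 0.02, edgeR, adjusted p = 5.43e-17) and 1.30-fold lower in knockout (-0.37 ± 0.02, adjusted p = 1.47e-18), and the difference between the latter was -0.04 ± 0.02 (adjusted p = 0.205). Ldhb (chromosome 6, 142490249 to 142507957), the form of oxidative tissues, had 20.99 and 20.2 CPM in wild type, 33.8 and 31.8 in heterozygous and 24.7 and 25.5 in knockout. No libraries of different genotypes overlapped. Ldhb rose 1.59-fold in heterozygous (log2 0.67 ± 0.09, edgeR, adjusted p = 1.76e-08) and 1.22-fold in knockout (0.29 ± 0.09, adjusted p = 0.00754), the latter not without wild-type library 2 or knockout library 2 (adjusted p = 0.0645 and 0.0639). Per kilobase of exon Ldhb made up 3.04% ± 0.0384 (SD, n = 2) of both in wild type, 5.94% ± 0.189 in the heterozygous cultures and 4.72% ± 0.202 in knockout.

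**Figure D4:**
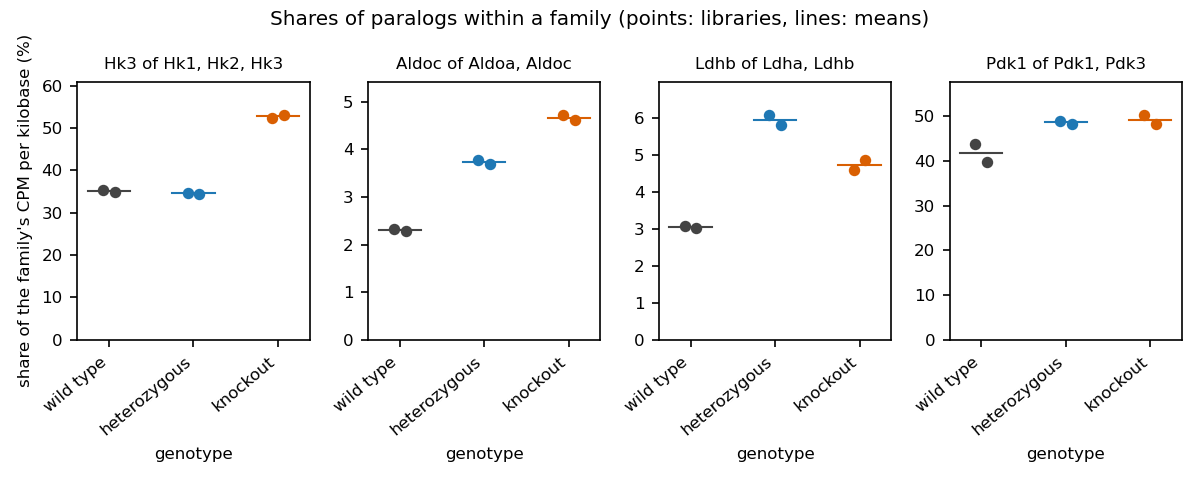
Share of Hk3, Aldoc, Ldhb and Pdk1 in the summed CPM per kilobase of the family members named above each panel, with 1 point per library, a line at the mean of the 2 libraries and axes that start at 0. The share of Hk3 is highest in knockout at 52.7%, that of Aldoc rises from 2.30% to 4.66% and that of Ldhb is highest in heterozygous at 5.94%.

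The pyruvate dehydrogenase kinases split as well. Pdk1, a HIF target, rose in heterozygous, from 107 and 101 to 128 and 131 CPM (log2 0.32 ± 0.04, edgeR, adjusted p = 1.04e-07), and less in knockout (0.13 ± 0.04, adjusted p = 0.0161), where the call was lost without wild-type library 2 or knockout library 1 (adjusted p = 0.226 and 0.219). Pdk3, on the X chromosome, fell in knockout, from 45.0 and 50.1 to 38.2 and 39.1 CPM (log2 -0.30 ± 0.07, edgeR, adjusted p = 0.000453). In heterozygous Pdk3 gave -0.07 ± 0.07 (adjusted p = 0.428), and its lower level in knockout than in heterozygous (-0.23 ± 0.07, adjusted p = 0.0091) was lost with library totals alone and without heterozygous library 2 or knockout library 1 (adjusted p = 0.0651, 0.107 and 0.0696).

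Taken as 16 glycolytic enzymes and lactate dehydrogenases, 9 genes were lower and 3 higher in knockout, and 9 lower and 4 higher in heterozygous, than in wild type. Between knockout and heterozygous 6 were lower and 3 higher. Of all genes tested 18.9%, 19.7% and 17.9% were lower and 19.2%, 19.2% and 19.1% higher in these 3 comparisons. At a mean of at least 10 CPM the shares were 24.3%, 26.4% and 22.4% lower and 25.8%, 24.2% and 26.5% higher. The summed level of the 16 was 8453 and 8314 CPM in wild type, 7443 and 7444 in heterozygous and 7694 and 7592 in knockout. Knockout thus had 91.2% and heterozygous 88.8% of the wild-type sum. Pkm, Aldoa and Ldha made up 66.0% to 69.5% of it in each library, and without these 3 genes knockout had 89.7% and heterozygous 96.4% of wild type. The summed level of the 6 HIF targets was 408 and 404 CPM in wild type, 582 and 572 in heterozygous and 466 and 460.1 in knockout. These sums rose where those of the enzymes fell. In knockout, however, only Ndrg1 and Adm of the 6 targets were higher than in wild type, and 3 were lower. In heterozygous Ndrg1, Adm and Bnip3 were higher, Ddit4 was lower, and Vegfa and Ankrd37 did not pass. The median log2 fold change in knockout against wild type was -0.115 for the 6 targets and -0.113 for the 16 enzymes.

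Levels per kilobase of exon compare genes with each other in wild type. Exon lengths are unions over all transcripts of GENCODE M21, which lowers the level of genes with long rare exons. Exons of 12 of the 35 genes share bases with another annotated gene, at most 767 bases, in Pkm. Hif1a, at 78.4 ± 0.388 CPM per kilobase, exceeded Epas1, at 4.64 ± 0.0449 (SD, n = 2), and with 79.1 against 12.8 it also did in knockout. Slc2a1 stood at 59.6 ± 0.780, Gpi1 at 87.2 ± 0.928 and Eno1, on its own symbol, at 78.2 ± 1.07. Since copies of Eno1 held 50.2% of the summed counts, its level cannot be ranked against that of Hif1a. Gapdh, the dehydrogenase between aldolase and phosphoglycerate kinase, is not among the 35 genes. Its 75 near-identical copies held 51.1% of the summed counts, so its level is not a measure of that step. On its own symbol it fell in heterozygous (log2 -0.39 ± 0.05, edgeR, adjusted p = 2.09e-08) and gave -0.10 ± 0.05 in knockout (adjusted p = 0.12).

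Other genes of these pathways came from a list of 80 in the table, of which 71 were tested. In knockout against wild type 20 rose and 18 fell, and in heterozygous against wild type 22 rose and 20 fell. In knockout against heterozygous 19 rose and 21 fell. Thus 53.5%, 59.2% and 56.3% of the 71 were called, against 38.0%, 38.9% and 37.1% of all genes tested. At a mean of at least 10 CPM, 50.2%, 50.6% and 48.9% of genes were called. Among 22 other HIF targets, 7 were higher and 7 lower in knockout than in wild type. In heterozygous 13 were higher and 3 lower than in wild type, and in knockout 3 higher and 14 lower than in heterozygous. Of these 22, 63.6%, 72.7% and 77.3% were thus called in the same order of comparisons. Plod2, a lysyl hydroxylase of collagen, had 383 and 391 CPM in wild type, 308 and 297 in heterozygous and 172 and 176 in knockout. Knockout was lowest, at 2.22-fold below wild type (log2 -1.15 ± 0.03, edgeR, adjusted p = 2.87e-30). Lox, which cross-links collagen, rose in heterozygous (log2 0.40 ± 0.02, adjusted p = 2.7e-24) and fell in knockout (-0.30 ± 0.02, adjusted p = 6.24e-20). Cited2, which competes with HIF for the coactivator p300, rose in heterozygous (log2 0.42 ± 0.04) and in knockout (0.75 ± 0.04, edgeR, adjusted p = 5.07e-13 and 1.68e-21). Pygb, a glycogen phosphorylase, fell in both (log2 -0.28 ± 0.04 and -0.63 ± 0.04, edgeR, adjusted p = 1.63e-08 and 1.53e-18).

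Summed levels of markers of other cell types differed between the genotypes, and the markers of a list did not all go the same way. Against wild type, 38.0% of all genes tested were called in knockout and 38.9% in heterozygous. In knockout 19.2% were higher and 18.9% lower, and in heterozygous 19.2% were higher and 19.7% lower. The macrophage list (12 of 13 tested, Aif1 listed at 0) summed to 13354 to 13610 CPM in wild type, 16486 to 16588 in heterozygous and 15448 to 15614 in knockout, with 8 higher and 0 lower in knockout and 7 higher and 2 lower in heterozygous. All 9 fibroblast markers were tested and their sums were 24839 to 25249, 28768 to 29426 and 15927 to 16024 CPM in the same order, with 3 higher and 6 lower in knockout and 7 higher and 2 lower in heterozygous. In knockout Pdgfra, Dcn and Lum rose (log2 0.96, 0.82 and 1.01), while the more abundant Col1a1 and Col1a2, and Thy1, fell (-0.97, -0.68 and -1.16). The 6 markers of proliferating cells summed to 828 to 849, 658 to 659 and 939 to 952 CPM, with 3 higher and 0 lower in knockout and 0 higher and 6 lower in heterozygous. Adipocyte markers were low but rose, with 5 of 5 tested higher in both genotypes and sums of 15.6 to 15.7, 28.9 to 32.4 and 39.2 to 40.4 CPM. Endothelial markers summed to 34.8 CPM in each wild-type library, 27.6 to 29.8 in heterozygous and 74.2 to 77.5 in knockout, where of 5 tested 3 rose, among them Kdr and Vwf (log2 1.35 and 1.43), and Cdh5 fell (-2.71). Erythroid and lymphocyte markers summed to at most 0.347 and 0.0294 CPM in any library. The part of these markers in the changes of the 35 genes was not tested. In cultures sequenced in bulk, fewer cells of a type and less RNA per cell cannot be told apart.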

How the data were processed

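RNA was measured by sequencing of 6 libraries, 2 per Chsy3 genotype. The deposited table gives counts per gene symbol, judged raw from whole numbers with unequal totals, and per the submitters' processing notes HISAT2 2.0.4 and GRCm38 were used. Neither the counting tool nor its annotation or strand setting is given in the sources used here, so reads of gene copies and of genes that overlap on opposite strands may be shared or split. The counts were tested with edgeR 4.0.16 (R 4.3.3). TMM factors were 0.974 to 1.02, and filterByExpr removed genes of low count. All 6 libraries were fitted at once by robust quasi-likelihood, which leaves 3 residual degrees of freedom. The two-sided F test for each pair of genotypes was adjusted by the Benjamini-Hochberg method over 16061 genes, with a threshold of 0.05. With so few libraries, the spread of a gene is drawn strongly toward that of other genes of like abundance. SE is the log2 fold change divided by the root of F. An exact permutation test of 2 against 2 libraries cannot pass the threshold and was not used. A limit of 3 counts corresponds to 0.0880 to 0.104 CPM per library and covers counting error only.

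The 35 genes and the other lists were chosen with earlier results of these data known. All 35 were named whatever their values. Values in every library are given for the 12 with a mean of at least 10 CPM and the largest changes past the threshold, for Hif1a, Hk1, Hk2, Ldha and Ldhb, and for others where helpful. From the wider list the 6 genes with the smallest p-values in knockout against wild type and Gapdh were to be named, and 1 of these is not reported here. Copies were other genes whose GENCODE M21 transcripts aligned with at least 95% identity over 200 bases. Adding them was an alternative chosen after seeing the data. The other alternatives were RLE size factors, library totals alone, DESeq2 1.42.0, no filter, a mean of at least 5 CPM, only the 4 libraries compared, a replicate block, no robust estimation, copies added by symbol, and leaving out each library. The procedure was tested on simulated data. The 2 libraries of a genotype differed by more than sampling noise, with a mean chi-square per gene of 3.62 to 3.76.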

Additional observations from a re-analysis of the deposited data

How the results depend on the processing

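The count of the 35 genes past the threshold stayed within 1.5 times its value under each alternative, at 19 to 25 in knockout against wild type, 21 to 25 in heterozygous against wild type and 18 to 25 in knockout against heterozygous. Leaving out 1 library each moved the median log2 fold change of the list in heterozygous against wild type from -0.0613 to 0.0877, so it had no stable sign. In knockout against heterozygous library totals alone gave a median of -0.138. That scaling also moved the share of higher calls among all called genes from 51.6% to 64.7% in knockout against heterozygous, and gave 4 higher and 17 lower genes of the list; in heterozygous against wild type the list then had 12 higher and 13 lower. The signs that turned belonged to values near 0, all of them not called except Gpi1 in knockout against heterozygous. With library totals alone Vhl, Egln3 and Slc16a1 stood at -0.0166, -0.0231 and -0.0309 in heterozygous against wild type, and Hk1, Gpi1 and Ldha at 0.0611, 0.00111 and 0.0280 in knockout against heterozygous, where Hk1 without a filter gave 0.000254. Over the fits without 1 library, the range in knockout against wild type was -0.0393 to 0.0422 for Pfkfb3 and -0.00482 to 0.0295 for Hif1a. In heterozygous against wild type it was -0.0729 to 0.114 for Egln3, -0.261 to 0.113 for Slc2a3, -0.0913 to 0.129 for Vhl, -0.0737 to 0.0877 for Slc16a1 and -0.151 to 0.00508 for Pdk3, and in knockout against heterozygous -0.0173 to 0.00723 for Hk1 and -0.238 to 0.0444 for Eno2. The cause of these turns was not tested. With a replicate block, 25, 25 and 23 of the 35 genes passed, and Gpi1 in knockout against heterozygous (adjusted p = 0.0506) was the single call it changed. The replicate numbers did not pair the libraries, since deviations from the group means correlated at -0.0071 to 0.0178 across 10040 genes. Ankrd37 fell under the filter of 5 CPM and has no value there. Low counts limit Ankrd37 and Slc2a3 the most.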

Other observations

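Some genes of the wider pathway list, chosen after their values were seen, were much higher in heterozygous than in the other genotypes. Car9, the carbonic anhydrase often used as a marker of hypoxia, had 14.2 and 14.3 CPM in wild type, 46.9 and 41.6 in heterozygous and 18.5 and 15.7 in knockout. Ppp1r3c, a glycogen-targeting subunit of protein phosphatase 1, had 6.73 and 6.003 CPM in wild type, 48.5 and 48.2 in heterozygous and 12.1 and 12.8 in knockout. Igfbp3, which binds insulin-like growth factors, had 2.59 and 2.65, 19.0 and 18.2, and 4.49 and 5.01 CPM, and Pdp1, the phosphatase that opposes the pyruvate dehydrogenase kinases, 29.3 and 28.9, 65.9 and 69.0, and 39.3 and 38.3 CPM in the same order. In heterozygous against wild type their log2 fold changes were 1.63 ± 0.09 for Car9, 2.92 ± 0.10 for Ppp1r3c, 2.83 ± 0.17 for Igfbp3 and 1.21 ± 0.07 for Pdp1 (SE, edgeR). Angptl4, Epo and Ldhc were listed at 0 in all libraries.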
